A study of Homo sapiens with 13 samples.

Results

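RNA of 10 marker genes of ovarian carcinoma was followed through 13 libraries of 2 human ovarian cancer cell lines. They were taken by symbol: 3 lineage transcription factors (PAX8, WT1 and SOX17) and 7 surface antigens (MUC16, MUC1, MSLN, FOLR1, LGR5, CD44 and CD24), of 62703 genes in the count tables. All 10 were found in both tables. SKOV3 cells, a line from ascites with an amplified ERBB2 gene, carried a control vector, an RSF1 overexpression construct, or RSF1delUAB, which lacks the UAB region of RSF1, with 3 libraries each and no treatment named. OVCAR3 cells, from the ascites of a serous carcinoma, expressed a scrambled control or the UAB peptide, with 2 libraries each. All 4 OVCAR3 libraries, controls included, came from cells given 2000 ng/mL doxycycline for 6 days. RSF1 is a chromatin remodelling factor that binds ubiquitinated histone H2A through its UAB region. The labels name no clones or pools, and nothing in them ties replicates to separate cultures, so p-values measure the spread between these libraries, which may be technical. Library totals were 15194678 to 18748009 counts in SKOV3 and 18160558 to 24026993 in OVCAR3.

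PAX8 and SOX17 are transcription factors of the Muellerian duct lineage, from which the Fallopian tube epithelium arises, and they stay active in many serous ovarian carcinomas. WT1, a zinc finger factor of the urogenital ridge, is used with PAX8 to recognise serous carcinoma in pathology. The surface antigens differ in how they sit on the cell. MUC16, whose shed part is the blood marker of ovarian cancer, and MUC1 are transmembrane mucins. MSLN (mesothelin, which binds MUC16), FOLR1 (a folate receptor) and CD24 are held by a GPI anchor, LGR5 is a seven-pass receptor for R-spondins that raises Wnt signalling, and CD44 is a receptor for hyaluronan. Several of them are targets of antibody drugs.

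Levels are CPM, each count relative to the TMM-adjusted size of its library within a line, given as mean ± SD (n = 3 in SKOV3, n = 2 in OVCAR3). A gene is said to have risen or fallen at an adjusted p under 0.05 in edgeR's quasi-likelihood test with Benjamini-Hochberg adjustment over all genes tested. RSF1 itself, read as a check of the labels, stood at 44.0 ± 3.08 CPM with control vector, 719 ± 76.97 with RSF1 and 488 ± 25.6 with RSF1delUAB. In OVCAR3 it stood at 636 ± 101 and 687 ± 142 CPM, so it does not check those labels. Log2 CPM correlated at 0.987 to 0.992 within SKOV3 groups and 0.985 to 0.987 within OVCAR3 groups, above all values between groups of a line. Of 14 epithelial markers, 10 reached 1 CPM in SKOV3 control cells and 14 in OVCAR3 scrambled cells. Their summed level was 1392 to 1454 CPM against 9101 to 9472 CPM, and the adhesion gene CDH1, a defining epithelial marker, was at 0.264 ± 0.177 CPM in SKOV3 control cells against 198 ± 6.52. Immune markers summed to 1.06 to 2.20 CPM in SKOV3 and 4.04 to 11.02 CPM in OVCAR3, with CD3D and MS4A1 at 0 in every group. CD14 led them with the scrambled control, at 6.30 ± 1.54 CPM. It fell to 1.01 ± 0.0332 with the UAB peptide (log2 fold change -2.64, adjusted p = 0.000104), 1 of 3 tested (5.46% of all genes fell). The 1 immune marker tested in SKOV3 rose with RSF1 and with RSF1delUAB, by 3.33 and 2.83 log2 units (34.3% and 34.5% of all genes rose). In these bulk libraries fewer cells with a transcript and less of it per cell cannot be told apart.

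Promoter stretches are shown for PAX8, WT1, MUC1 and CD24, the 4 markers with a RefSeq window that met the limits on sequence. Their responses, described below, were in that order a fall in SKOV3, a rise from near 0, a fall in OVCAR3 and a graded rise. They are the RefSeq windows of GRCh38.p14 up to the base before the first annotated exon base, read 5′ to 3′ on the minus strand. Entries matched 6 of the 10 genes, and 4 of these had a start site within 30 bases of the start of the gene in the tables. The PAX8 and WT1 stretches, of 221 and 159 bases, end farther out, where an exon of the gene is annotated. Capitals mark the GC box GGGCGG, the TATA box TATAAA and the CCAAT box, on either strand. The stretches lie at chr2:113278951-113279171 for PAX8, chr11:32435631-32435789 for WT1, chr1:155192917-155193165 for MUC1 and chr6:106975628-106975877 for CD24.
PAX8: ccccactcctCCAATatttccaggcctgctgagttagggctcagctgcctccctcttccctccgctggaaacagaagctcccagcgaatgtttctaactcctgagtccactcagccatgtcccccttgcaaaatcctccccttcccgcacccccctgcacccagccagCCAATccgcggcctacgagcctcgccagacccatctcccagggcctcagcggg
WT1: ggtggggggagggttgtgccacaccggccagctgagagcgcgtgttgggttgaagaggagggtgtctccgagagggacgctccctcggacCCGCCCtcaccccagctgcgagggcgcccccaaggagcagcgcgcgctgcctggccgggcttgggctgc
MUC1: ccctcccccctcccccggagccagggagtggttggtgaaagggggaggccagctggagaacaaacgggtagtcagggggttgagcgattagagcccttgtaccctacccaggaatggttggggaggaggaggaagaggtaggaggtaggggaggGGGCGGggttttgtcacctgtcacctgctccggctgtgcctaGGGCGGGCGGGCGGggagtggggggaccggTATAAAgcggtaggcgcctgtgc
CD24: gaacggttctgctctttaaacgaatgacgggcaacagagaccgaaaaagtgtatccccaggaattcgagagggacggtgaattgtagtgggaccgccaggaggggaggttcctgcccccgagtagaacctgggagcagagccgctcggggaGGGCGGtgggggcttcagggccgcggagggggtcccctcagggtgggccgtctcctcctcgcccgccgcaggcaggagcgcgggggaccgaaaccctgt

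The PAX8 stretch of 221 bases held the CCAAT box in 2 places, and 29.9% of 35116 RefSeq promoter stretches of that length held at least 1. MUC1 had 4 matches of the GC box, which 42.6% of stretches of 249 bases held, and 1 TATA box (10.7%). WT1 and CD24 each had 1 GC box, present in 27.5% of stretches of 159 bases and 42.6% of stretches of 250 bases, and neither had the TATA or CCAAT letters. GTGGGNG, a core shared by WT1 and EGR factors, occurred once each in WT1, MUC1 and CD24 (19.6%, 30.5% and 30.6% of stretches of their lengths) and not in PAX8. The AP-1 letters TGANTCA were in none of the 4. These are matches of letters and not measured binding.

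The lines began from different marker sets. With control vector, SKOV3 had 4 of the 10 transcripts at or near background: over 3 libraries there were 9 counts of WT1, 4 of FOLR1, 6 of LGR5 and 3 of MUC16. OVCAR3 with the scrambled control had all 10, the lowest being LGR5 at 7.08 ± 2.82 CPM. In a fit of all 13 libraries all 10 differed between SKOV3 control and OVCAR3 scrambled cells, where 76.5% of genes tested did. CD44 was the 1 marker higher in SKOV3 (36% of all genes were higher), by 2.84 ± 0.0902 log2 units (SE, adjusted p = 1.1e-17). The other 9 were lower (40.6% of all genes were). Line, construct and doxycycline cannot be told apart here.

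From OVCAR3 to SKOV3 the count ratio was 5799 for MUC16 (95% counting interval 1984 to 28123), 195 for FOLR1 (75.9 to 718), 67.6 for WT1 (35.4 to 149) and 53.1 for LGR5 (24.1 to 146). These intervals cover counting error alone. Without SKOV3 control replicate 2, which held 5 of the 6 LGR5 counts, the fitted log2 difference of LGR5 went from -5.66 to -7.46. MSLN was lower in SKOV3 by 4.10 log2 units, CD24 by 3.99, MUC1 by 1.79, SOX17 by 1.17 and PAX8 by 0.37 (adjusted p = 0.000262, the largest of the 10).

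Per length of exon, as TPM (counts per base scaled to the same total in every library), PAX8 was the most abundant of the 10 in SKOV3 control cells at 269 ± 6.54 TPM. CD44 followed at 152 ± 4.27 TPM, and CD24 (91.2 ± 1.76) and SOX17 (88.6 ± 8.34) overlapped each other. With RSF1, PAX8 (202 ± 20.9 TPM) and CD24 (181 ± 15.4 TPM) overlapped at the top. With RSF1delUAB the order turned: CD24 led at 674 ± 24.9 TPM, above CD44 at 162 ± 4.32 and PAX8 at 147 ± 4.21, with no overlap among them. In OVCAR3 CD24 led in both groups, at 1230.3 ± 3.38 and 1211 ± 35.5 TPM, and PAX8 was next at 294 ± 43.1 and 343 ± 18.5 TPM. CD44 was eighth with the scrambled control, at 17.99 ± 1.97 TPM, in the range of MUC16 just above it (29.2 ± 19.98 TPM), and last with the UAB peptide, at 2.74 ± 0.137 TPM.

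**Figure D1:**
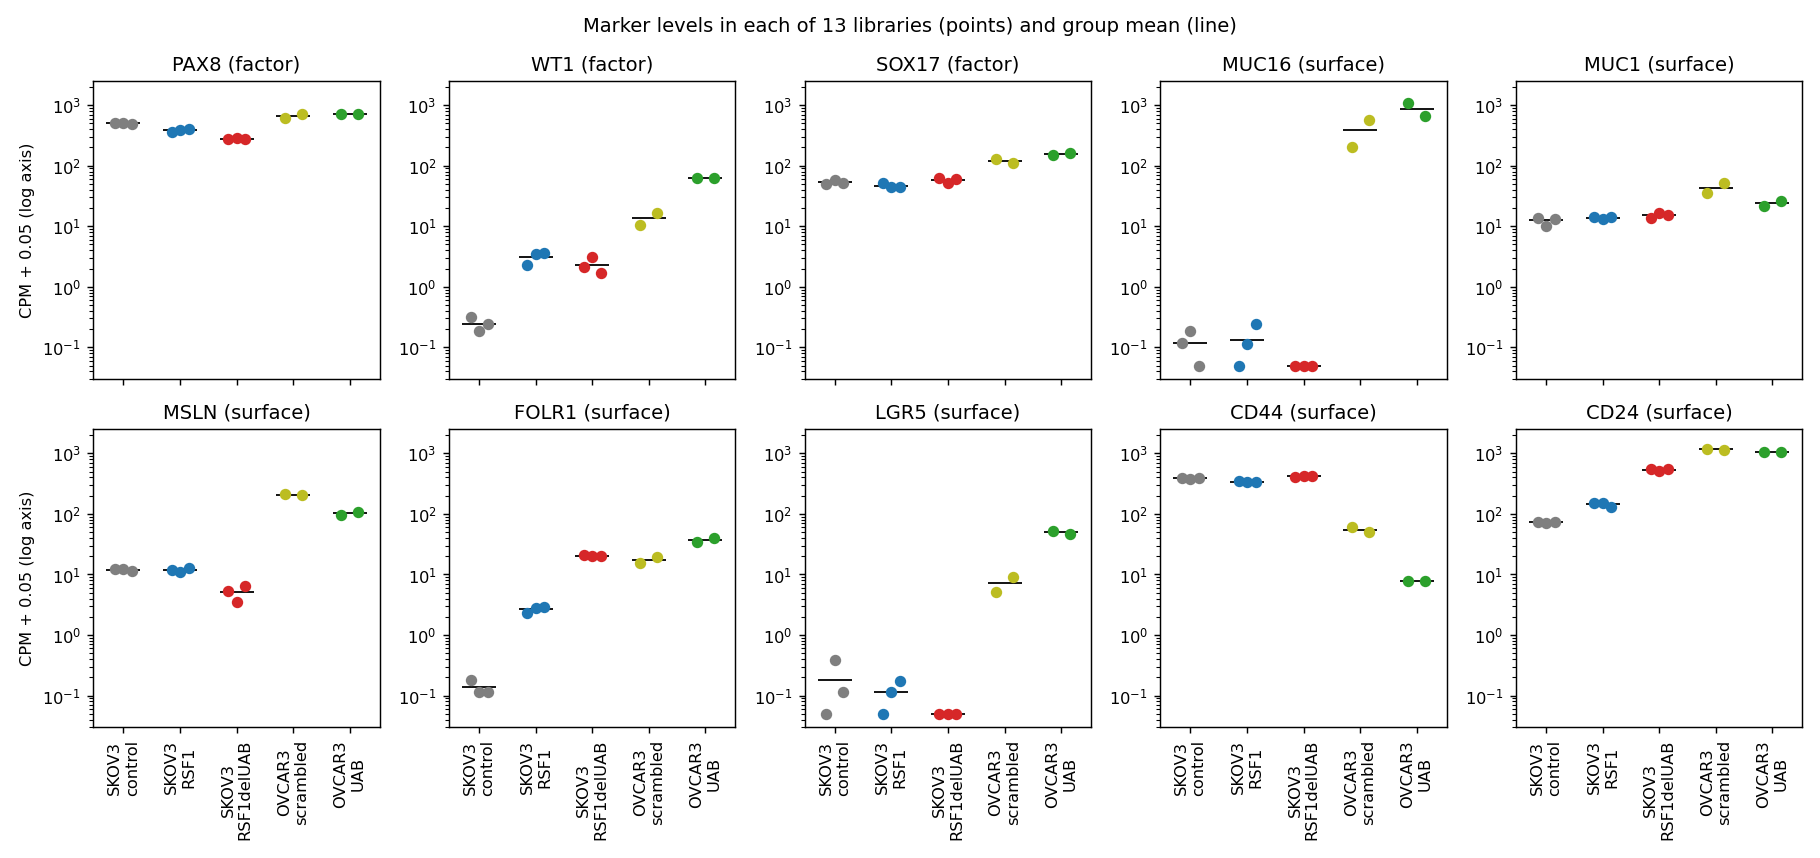
CPM plus 0.05 on a log axis for the 10 markers, in each library (points) of the 5 groups, with the group mean as a line. MUC16 and LGR5 lie at the floor in all 9 SKOV3 libraries, FOLR1 and CD24 step up from control to RSF1 to RSF1delUAB, and CD44 is lowest in the 2 UAB libraries, at 7.70 and 7.64 CPM.

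The share of markers that changed was near that of all genes for either construct against control in SKOV3, and above it in the other 2 comparisons. The markers were chosen with earlier results of these data known, so no conclusion is drawn from a share above that of all genes. In SKOV3 8 of the 10 passed the filter on low counts, and MUC16 and LGR5 did not, at no more than 5 counts in any library. With RSF1 against control, 5 of the 8 tested changed (67.3% of all genes did). WT1, FOLR1 and CD24 rose (34.3% of genes) and PAX8 and CD44 fell (32.9%), and the median log2 fold change was 0.08 beside 0.02 over all genes. With RSF1delUAB against control, 6 of 8 changed (66.6%). WT1, FOLR1, CD24 and MUC1 rose (34.5%) and PAX8 and MSLN fell (32.1%), with a median of 0.21 beside 0.02. Both comparisons share the control libraries.

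Between the constructs, 6 of 8 differed (38.6% of all genes did). PAX8 and MSLN were higher with RSF1 (18.5%), and SOX17, FOLR1, CD44 and CD24 were higher with RSF1delUAB (20.2%). In OVCAR3 all 10 were tested and 7 changed with the UAB peptide (10.9% of all genes did). WT1, MUC16, FOLR1 and LGR5 rose (5.45%) and MUC1, MSLN and CD44 fell (5.46%). The median was 0.24 over the 10 and 0.01 over all genes. Among lineage factors WT1 alone changed there, 1 of 3, and among surface antigens 6 of 7. In each SKOV3 comparison 1 of the 3 lineage factors was higher, 1 was lower and 1 did not pass. Of the 5 surface antigens tested in SKOV3, 2 rose and 1 fell with RSF1, and 3 rose and 1 fell with RSF1delUAB. Between the constructs 1 was higher and 3 were lower with RSF1. These counts stand beside the shares of all genes given above.

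**Figure D2:**
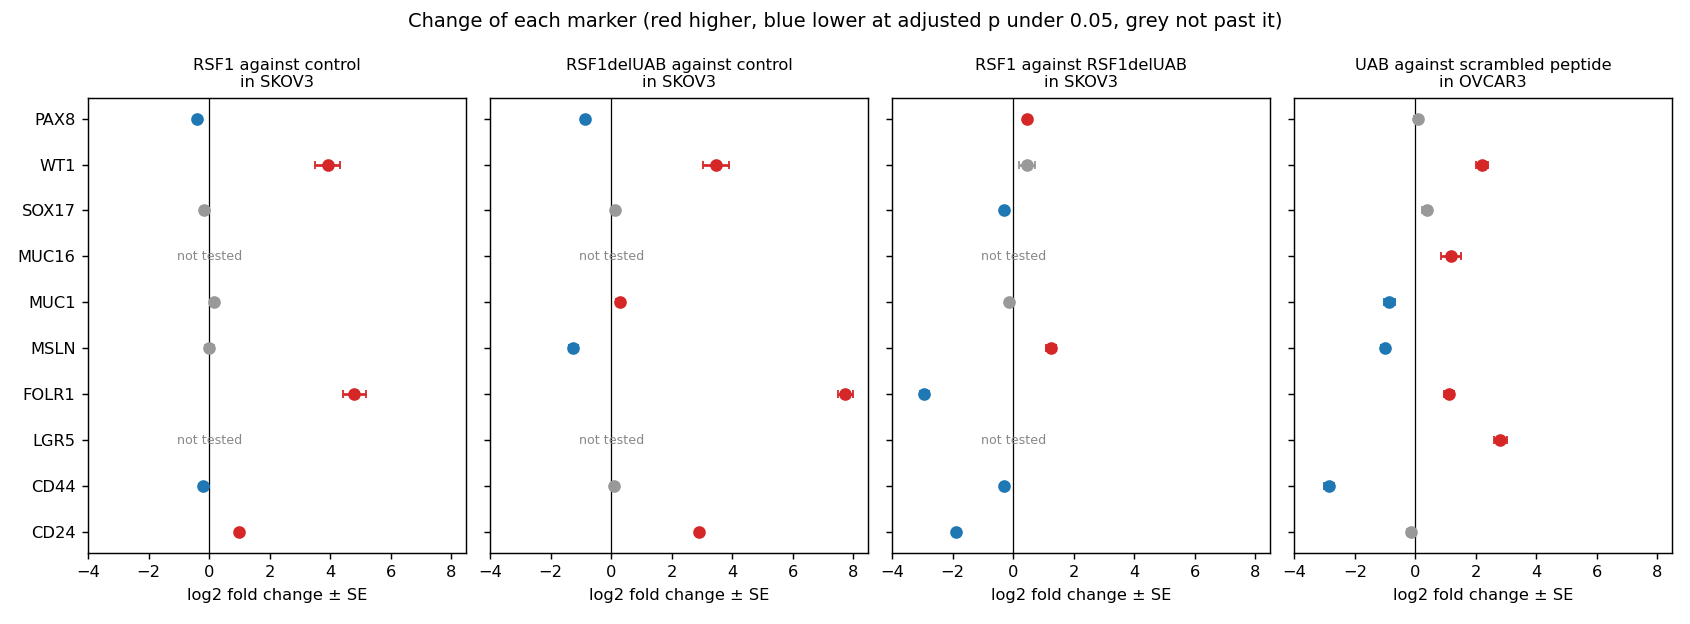
Log2 fold change with its standard error (bars) of each marker in 4 comparisons, red for higher and blue for lower at adjusted p under 0.05, grey otherwise. FOLR1 reaches 7.74 with RSF1delUAB against control, and CD44 and LGR5 move by similar amounts in opposite directions with the UAB peptide, at -2.84 and 2.81.

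PAX8 (ENSG00000125618, chromosome 2, 113215997 to 113278921 on GRCh38, minus strand) was lowered by both constructs in SKOV3, more by RSF1delUAB. It was at 515, 510.2 and 494 CPM with control vector, 357, 385 and 406 with RSF1, and 278, 288 and 274 with RSF1delUAB. The 3 groups did not overlap. Relative to control this was a log2 fold change of -0.40 ± 0.0612 with RSF1 (SE, adjusted p = 7.46e-06) and of -0.85 ± 0.0617 with RSF1delUAB (adjusted p = 1.94e-10). RSF1 libraries were 0.45 ± 0.0615 above RSF1delUAB (adjusted p = 6.84e-06). In OVCAR3 both groups covered the same range, at 607 and 716 CPM with the scrambled control and 714 and 705 with the UAB peptide, and the difference of 0.10 (95% interval -0.18 to 0.38) did not pass the test (adjusted p = 0.689).

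PAX8-AS1, the antisense RNA of the locus, shares 1651 of the 7371 exon bases of PAX8 in the tables (22.4%), and the use of strand in counting is not given in the sources used here. Reads from the shared bases therefore cannot be assigned. PAX8-AS1 went from 94.9 ± 5.47 CPM with control vector to 35.0 ± 9.61 with RSF1 (log2 fold change -1.44, adjusted p = 1.05e-08) and 28.03 ± 3.56 with RSF1delUAB (-1.76, adjusted p = 6.12e-10). Both transcripts of the locus were thus lower with either construct, and neither changed past the threshold in OVCAR3.

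WT1 (ENSG00000184937, chromosome 11, 32387775 to 32435564, minus strand) appeared with either construct in SKOV3 and rose in OVCAR3 with the UAB peptide. Counts per SKOV3 library were 4, 2 and 3 with control vector, 34, 54 and 57 with RSF1, and 39, 52 and 27 with RSF1delUAB. All 6 construct libraries lay above the 3 controls, at ratios of 15.7 (95% counting interval 8.02 to 34.9) and 11.4 (5.82 to 25.6). The adjusted p was 8.35e-08 and 7.71e-07. The constructs overlapped each other and differed by 0.45 ± 0.273 log2 units, which did not pass the test (95% interval -0.12 to 1.02, adjusted p = 0.208).

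In OVCAR3 WT1 was at 10.4 and 16.6 CPM with the scrambled control and 61.4 and 63.1 CPM with the UAB peptide. The lowest UAB library was above the highest control. The log2 fold change was 2.20 ± 0.191 (adjusted p = 5.56e-06). WT1-AS, the antisense RNA from the shared promoter region, which overlaps WT1 by 47 exon bases, also rose, from 5.61 ± 1.29 to 14.8 ± 1.25 CPM (log2 fold change 1.40, adjusted p = 0.00057). In SKOV3 WT1-AS had 0 counts over the control libraries, 12 with RSF1 and 6 with RSF1delUAB, and did not pass the filter. Even with RSF1 the WT1 level in SKOV3 (3.08 ± 0.749 CPM) stayed below both scrambled OVCAR3 libraries.

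SOX17 (ENSG00000164736, chromosome 8, 54457935 to 54460892, plus strand) moved little in SKOV3. It was at 49.5, 59.1 and 50.9 CPM with control vector, 52.1, 44.3 and 44.4 with RSF1, and 62.5, 52.2 and 59.4 with RSF1delUAB. Each construct overlapped the control, with log2 fold changes of -0.18 (adjusted p = 0.0904) and 0.13 (adjusted p = 0.226). RSF1 was below RSF1delUAB by 0.31 ± 0.0911 log2 units (adjusted p = 0.011), and the call was lost without RSF1 replicate 2 (adjusted p = 0.0556) or RSF1delUAB replicate 1 (0.0771), over a range of 5.07e-05 to 0.0771 in 14 alternatives. The median of the 407 tested genes on the long arm of chromosome 8 moved by -0.23 in that comparison, leaving -0.07 for SOX17 relative to its arm. In OVCAR3 it was at 131 and 112 CPM with the scrambled control and 149 and 165 with the UAB peptide, without overlap but short of the threshold (log2 fold change 0.37, 95% interval 0.08 to 0.67, adjusted p = 0.102).

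FOLR1 (ENSG00000110195, chromosome 11, 72189558 to 72196323, plus strand), the folate receptor, rose in every comparison with a control. Counts per SKOV3 library were 2, 1 and 1 with control vector, 35, 43 and 46 with RSF1, and 388, 345 and 333 with RSF1delUAB. The groups formed 3 separate steps, at ratios to control of 30.1 (95% counting interval 11.5 to 112) and 232 (90.5 to 855), with adjusted p of 6.35e-10 and 9.85e-16. RSF1 was 2.94 ± 0.143 log2 units below RSF1delUAB (adjusted p = 2.26e-12). With RSF1delUAB FOLR1 stood at 20.4 ± 0.376 CPM, and the scrambled OVCAR3 libraries, scaled within their own line, at 15.5 and 19.2 CPM. With the UAB peptide OVCAR3 went to 34.9 and 40.2 CPM (log2 fold change 1.12 ± 0.162, adjusted p = 0.000442).

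Its neighbours on chromosome 11 did not rise with it in SKOV3. FOLR2 had 0 counts in all 9 SKOV3 libraries. FOLR3, a secreted folate binder, was at 1.38 ± 0.268 CPM with control vector and 1.34 ± 0.184 with RSF1 (adjusted p = 0.92), and fell to 0.224 ± 0.0981 with RSF1delUAB (log2 fold change -2.55, adjusted p = 3.93e-05), the SKOV3 group with most FOLR1.

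CD24 (ENSG00000272398, chromosome 6, 106969831 to 106975627, minus strand), a small GPI-anchored sialoglycoprotein, rose in the same order of groups. It was at 72.3, 70.9 and 73.5 CPM with control vector, 154, 149 and 128 with RSF1, and 542, 520.3 and 554 with RSF1delUAB. No groups overlapped. The log2 fold change was 1.00 ± 0.0715 with RSF1 (adjusted p = 1.8e-10) and 2.90 ± 0.0738 with RSF1delUAB (adjusted p = 2e-17), and the constructs differed by 1.90 ± 0.0702 (adjusted p = 3.8e-14). In OVCAR3 CD24 was already the leading marker, and the UAB peptide left it at 1041 and 1064 CPM against 1190.3 and 1136 (log2 fold change -0.14, 95% interval -0.40 to 0.11, adjusted p = 0.505). CD24P4, a pseudogene that matches 241 of 243 of its bases to CD24 (99.2%), had 9 to 39 counts per group. How reads that match both were counted is not given in the sources used here, and other copies were not examined, so the CD24 level is uncertain by that part.

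MSLN (ENSG00000102854, chromosome 16, 760734 to 768865, plus strand), the third GPI-anchored antigen, fell with RSF1delUAB, where FOLR1 and CD24 rose, and with the UAB peptide. SKOV3 libraries held 183, 186 and 173 counts with control vector, 178, 174 and 205 with RSF1, and 99, 60 and 102 with RSF1delUAB. RSF1 overlapped control (log2 fold change -0.00, 95% interval -0.31 to 0.31, adjusted p = 0.987). RSF1delUAB was below both, by 1.25 ± 0.163 log2 units against control (adjusted p = 1.13e-06) and by 1.25 ± 0.163 against RSF1 (adjusted p = 3.85e-06).

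In OVCAR3 MSLN was at 209.7 and 202 CPM with the scrambled control and 97.7 and 108 with the UAB peptide (log2 fold change -1.004 ± 0.131, adjusted p = 0.000184). The groups did not overlap. The median of 482 tested genes on the same chromosome arm was -0.40 there, leaving -0.60 relative to the arm. The neighbouring MSLNL, a mesothelin-like gene, also fell, from 23.6 ± 0.0874 to 10.4 ± 2.40 CPM (log2 fold change -1.18, adjusted p = 0.000721). The 13 mesothelial markers of a separate list, which does not hold MSLN, summed to 233 to 234 CPM with the scrambled control. With the UAB peptide the sum was 128 to 136, with 1 risen and 4 fallen of 7 tested (5.45% and 5.46% of all genes). Among them CALB2 (calretinin) fell from 10.9 ± 2.71 to 1.69 ± 0.238 CPM and KRT6A from 21.9 ± 4.72 to 6.45 ± 0.453. UPK3B was higher with the peptide, from 8.83 ± 1.67 to 12.3 ± 0.858 CPM, but did not pass the test. PDPN was also higher, from 0.0432 ± 0.0611 to 0.687 ± 0.277 CPM, on 2 against 27 counts. DESeq2 called 0 of the list as risen and 4 as fallen. In SKOV3 the sum was 169 to 174 CPM with control vector, 43.8 to 51.0 with RSF1 and 24.5 to 24.9 with RSF1delUAB. THBD led it in the control, at 154 ± 2.45 CPM, and fell to 11.7 ± 0.560 and 6.42 ± 0.493. LRRN4 rose with RSF1, from 7.84 ± 0.302 to 26.1 ± 3.90 CPM, and DES rose with both constructs. Of 4 tested, 2 rose and 1 fell with RSF1 (67.3% of all genes changed). With RSF1delUAB 1 rose and 1 fell (66.6%). CALB2 was at 0 in the control. The part of these markers in the MSLN result was not tested.

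MUC16 (ENSG00000181143, chromosome 19, 8848844 to 8981342, minus strand) had 0 to 3 counts in every SKOV3 library, and no change was detectable at this depth. The 3 RSF1delUAB libraries had 0 counts, which allows up to 3. OVCAR3 held 4829 and 13146 counts with the scrambled control (206 and 568 CPM) and 22325 and 11899 with the UAB peptide (1094 and 649 CPM). The UAB libraries were higher, but members of each pair lay far apart. The log2 fold change was 1.17 ± 0.331 (adjusted p = 0.0347), it was 0.62 without scrambled replicate 1, 2.08 without scrambled replicate 2 and 0.75 without UAB replicate 1, and DESeq2 gave an adjusted p of 0.411. Over 11 alternatives the adjusted p ranged from 1.03e-21 to 0.411.

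MUC1 (ENSG00000185499, chromosome 1, 155185824 to 155192916, minus strand), the other transmembrane mucin, went the opposite way in OVCAR3. It was at 35.6 and 51.2 CPM with the scrambled control and 21.8 and 26.1 with the UAB peptide (log2 fold change -0.86 ± 0.18, adjusted p = 0.00641), without overlap. In SKOV3 it was at 13.7, 10.2 and 13.3 CPM with control vector, 14.1, 13.3 and 14.2 with RSF1, and 13.8, 16.5 and 15.1 with RSF1delUAB. RSF1 overlapped the control (log2 fold change 0.16, adjusted p = 0.268), and RSF1delUAB lay just above it (0.28 ± 0.122, adjusted p = 0.0463). That last call was lost in 6 of 14 alternatives, with adjusted p of 0.0217 to 0.265, the highest and a log2 fold change of 0.16 without control replicate 2. On the long arm of chromosome 1 the median of 724 tested genes was -0.52 with RSF1 and -0.53 with RSF1delUAB, so that MUC1 stood 0.68 and 0.82 above its arm.

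LGR5 (ENSG00000139292, chromosome 12, 71439798 to 71586310, plus strand) was not detectable as changed in SKOV3, with 0, 5 and 1 counts in control, 0, 1 and 2 in RSF1 and 0 in each RSF1delUAB library. In OVCAR3 it had 119 and 210 counts with the scrambled control and 1084 and 843 with the UAB peptide. The count ratio was 7.04 (95% counting interval 6.26 to 7.94, which covers counting error alone). In CPM LGR5 was at 5.09 and 9.07 against 53.1 and 46.01. The log2 fold change of 2.81 ± 0.22 (95% interval 2.34 to 3.28, adjusted p = 2.48e-06) was the largest rise among the 10 markers in OVCAR3. LGR5 shares 208 exon bases with another gene in the tables, which had at most 10 counts over its whole length in an OVCAR3 library. Where reads of the shared bases were counted is not known.

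CD44 (ENSG00000026508, chromosome 11, 35138882 to 35232402, plus strand) moved by small steps in SKOV3 and by a large one in OVCAR3. SKOV3 libraries were at 398, 378 and 389.6 CPM with control vector, 345, 339 and 330.3 with RSF1, and 411, 424 and 419 with RSF1delUAB. All 3 groups were apart from one another. RSF1 was 0.20 ± 0.0564 log2 units below control (adjusted p = 0.00375) and 0.31 ± 0.0563 below RSF1delUAB (adjusted p = 0.000206), while RSF1delUAB against control (0.10 ± 0.0562, adjusted p = 0.108) did not pass. That comparison passed without TMM scaling (adjusted p = 0.0209) and when fitted without the RSF1 libraries (0.0101), over a range of 0.0101 to 0.282 in 14 alternatives. The median of the 305 genes on its arm was 0.34 with RSF1 and 0.39 with RSF1delUAB, and relative to the arm CD44 stood at -0.54 and -0.28.

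In OVCAR3 CD44 was at 60.4 and 49.6 CPM with the scrambled control and 7.70 and 7.64 with the UAB peptide. The groups lay far apart, at a log2 fold change of -2.84 ± 0.168 (adjusted p = 2.11e-07), the largest fall of the 10. Counts per gene do not tell the splice forms of CD44 apart. The antisense RNAs CD44-AS1 and CD44-DT share 84 and 70 exon bases with it and had at most 13 counts in any library.

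CD44 and CD24 are often read as a pair on tumour cells. Per length of exon, the ratio of CD44 to CD24 was 1.64 to 1.70 in SKOV3 control libraries, 0.692 to 0.796 with RSF1 and 0.234 to 0.252 with RSF1delUAB. In OVCAR3 it was 0.0135 to 0.0157 with the scrambled control and 0.0022 to 0.0023 with the UAB peptide. The ranges of the 5 groups did not overlap. In SKOV3 CD24 rose 7.46-fold with RSF1delUAB while CD44 was at 1.08 times control, and in OVCAR3 CD44 was 7.17-fold lower while CD24 was at 0.904 times its control.

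**Figure D3:**
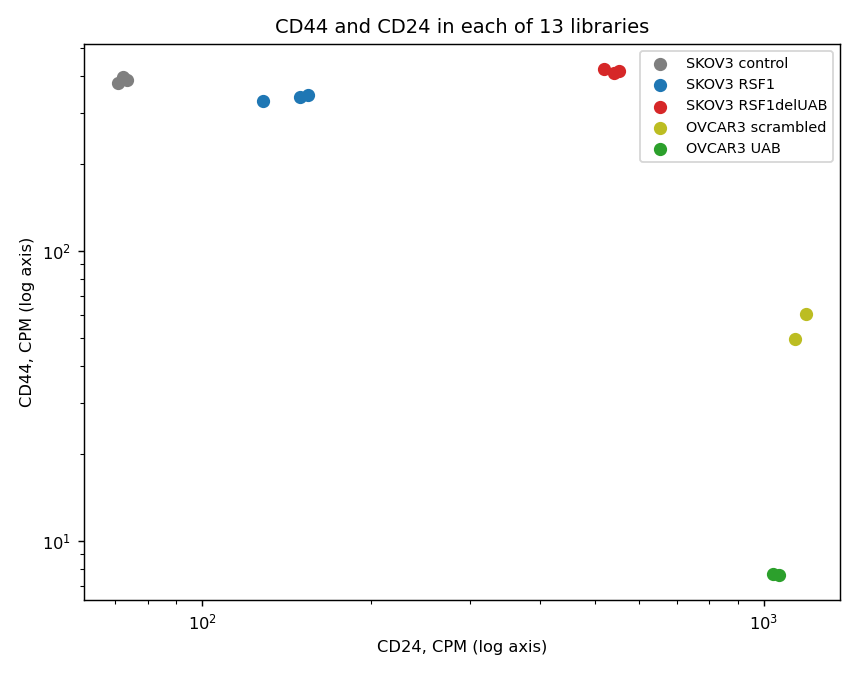
CD44 against CD24 in CPM on log axes, 1 point per library, coloured by group. SKOV3 groups move to the right at nearly level CD44, from 72.2 to 539 CPM of CD24 on average, while the OVCAR3 groups move down at nearly level CD24, from 55.0 to 7.67 CPM of CD44.

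The change with RSF1delUAB minus RSF1 in SKOV3 was set against the change with UAB minus scrambled in OVCAR3. This used a fit of all 13 libraries, added after the values had been seen. The difference between these 2 effects passed the test for 6 of the 8 markers with counts in all groups, beside 20.2% of all genes, 4 with the higher value in SKOV3 (10.4%) and 2 with the lower (9.81%). The lines, the baselines and the doxycycline also differ between them and cannot be told apart. Within SKOV3, RSF1 RNA was itself 0.56 ± 0.0746 log2 units higher with RSF1 than with RSF1delUAB (adjusted p = 5.07e-06). The level of the construct and the loss of the UAB region therefore cannot be told apart either. MSLN was lower in both (-1.25 and -1.004), and the difference of -0.25 did not pass (95% interval -0.65 to 0.15, adjusted p = 0.406). SOX17 was 0.31 and 0.37 higher, the second short of the threshold, with a difference of -0.07 (95% interval -0.39 to 0.24). FOLR1 was higher in both, by 2.94 and 1.12, and more so in SKOV3 (difference 1.82 ± 0.202, adjusted p = 7.49e-07).

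For CD24 the effect was 1.90 in SKOV3 and -0.14 in OVCAR3 (difference 2.04 ± 0.111, adjusted p = 1.78e-11), and for CD44 0.31 and -2.84 (difference 3.14 ± 0.129, adjusted p = 1.84e-13). WT1 was -0.45 against 2.20 (difference -2.66 ± 0.315, adjusted p = 1.77e-06), where the SKOV3 value alone did not pass. MUC1 stood at 0.13 against -0.86 (0.98 ± 0.211, adjusted p = 0.00181) and PAX8 at -0.45 against 0.10 (-0.56 ± 0.113, adjusted p = 0.000951). MUC16 and LGR5 gave no usable difference, since their RSF1delUAB libraries had 0 counts.

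**Figure D4:**
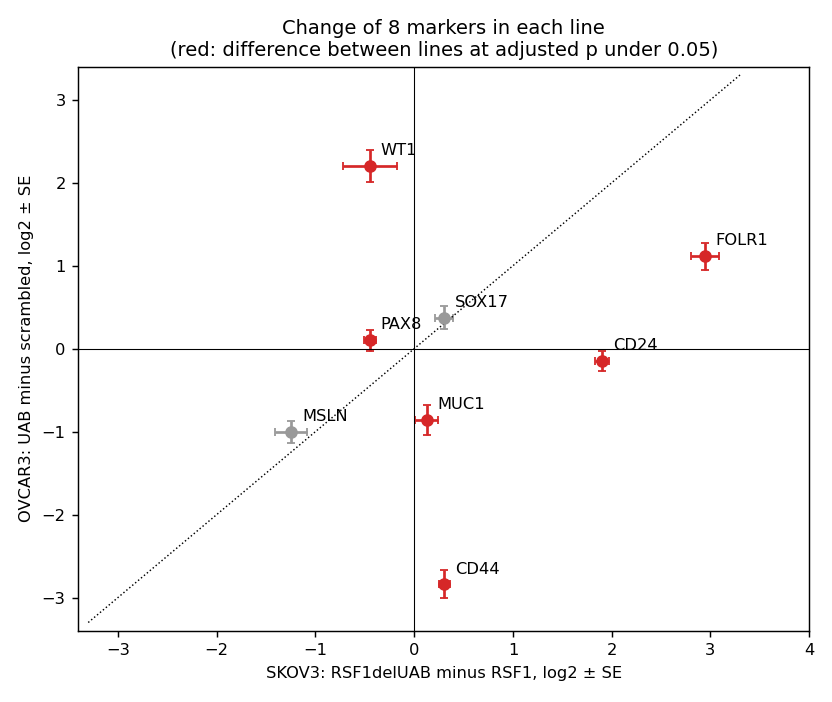
Log2 change of 8 markers for RSF1delUAB minus RSF1 in SKOV3 (horizontal) and for UAB minus scrambled in OVCAR3 (vertical), with standard errors, and a dotted line of equal change. MSLN and SOX17 (grey) lie near the line, and CD44 lies farthest from it, at 0.31 and -2.84.

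Lists of genes that work with these markers were counted in the same fits. The shares over all genes tested, against which the counts of each list are to be read, were 34.3% risen and 32.9% fallen with RSF1, 34.5% and 32.1% with RSF1delUAB, and 5.45% and 5.46% with the UAB peptide. No list was tested against other genes.

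Of 24 other factors of the Muellerian and gonadal lineages, 13 were tested in SKOV3. With RSF1 2 rose and 6 fell, and with RSF1delUAB 5 rose and 5 fell, beside 67.3% and 66.6% of all genes called in either direction. The median log2 fold changes were -0.29 and 0.10, beside 0.02 over all genes in both. LHX1, a factor needed for the Muellerian duct, fell with both constructs, from 118 ± 1.30 CPM to 38.3 ± 2.62 and 50.1 ± 3.35. In OVCAR3 3 of 15 rose and the other 12 did not pass, and LHX1 went the other way, from 0.495 ± 0.0949 to 34.4 ± 3.01 CPM (log2 fold change 6.10, adjusted p = 6.33e-09). FOXJ1, the ciliated cell factor, rose from 1.03 ± 0.0686 to 5.87 ± 1.65 CPM.

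Among 32 other ovarian carcinoma antigens, 10 of 19 tested rose and 5 fell with RSF1, and 11 rose and 2 fell with RSF1delUAB (67.3% and 66.6% of all genes changed). Medians were 0.41 and 0.79. BCAM, a laminin receptor, went from 2.96 ± 0.462 CPM to 95.5 ± 9.56 with RSF1 and 87.5 ± 3.24 with RSF1delUAB. F3, tissue factor, fell in steps that ran opposite to FOLR1, from 981 ± 18.4 to 218 ± 8.03 and 61.6 ± 1.37 CPM. ERBB2, amplified in SKOV3, was at 8430 ± 358 CPM with control vector, 2493 ± 340 with RSF1 and 7567 ± 254 with RSF1delUAB. In OVCAR3 7 of 30 rose and 6 fell (10.9% of all genes changed), with the adhesion molecule L1CAM going from 392 ± 76.4 to 143 ± 3.54 CPM and the fetal claudin CLDN6 from 276 ± 25.8 to 161 ± 13.5.

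Of 15 other mucins, 5 were tested in SKOV3, where 2 rose and 3 fell with RSF1 and 2 rose and 2 fell with RSF1delUAB. MUC20 rose from 5.37 ± 1.65 CPM to 8.36 ± 0.554 and 7.70 ± 0.916, and MUC13 fell from 10.3 ± 0.785 CPM to 1.49 ± 0.528 with RSF1 and 0.956 ± 0.272 with RSF1delUAB. In OVCAR3 2 of 8 tested mucins fell (5.46% of all genes), MUC15 and MUC4, and the other 6 did not pass. MUC4 varied widely in the scrambled pair, at 6.92 ± 5.25 CPM against 2.05 ± 0.265 with the UAB peptide. In limma-voom 1 of the 8 was called as fallen. Of the enzymes and galectins of mucin O-glycans, 9 rose and 4 fell of 18 with RSF1 (34.3% and 32.9% of all genes), 11 rose and 5 fell with RSF1delUAB (34.5% and 32.1%), and 5 rose and 2 fell of 20 with the UAB peptide (5.45% and 5.46%). LGALS3BP, a secreted galectin ligand, went from 189 ± 9.57 CPM to 675 ± 27.4 and 723 ± 16.1 in SKOV3. ST6GALNAC2, which caps O-glycans with sialic acid, rose in OVCAR3 from 4.99 ± 0.0838 to 16.2 ± 1.88 CPM.

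For LGR5, its partners and Wnt feedback genes were read. In OVCAR3 5 of 22 rose and 1 fell (5.45% and 5.46% of all genes). AXIN2, a Wnt target that restrains the pathway, went from 3.35 ± 0.218 to 7.15 ± 0.0782 CPM (log2 fold change 1.09, adjusted p = 0.00797), and NKD1, another inhibitor, from 0.794 ± 0.207 to 2.77 ± 0.174. LEF1 fell, from 17.7 ± 4.12 to 10.7 ± 1.27. In SKOV3, where LGR5 was at the floor, 4 of 16 rose and 7 fell with RSF1, a share near the 67.3% of all genes that changed, and 10 rose and 5 fell with RSF1delUAB (66.6%). AXIN2 was lower with RSF1 (2.41 ± 0.396 CPM) than with RSF1delUAB (16.7 ± 1.40, log2 difference -2.79, adjusted p = 6.09e-11), and TCF7 fell with both.

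Of 20 ligands, linkers and processing genes of CD44, 17 were tested in each line. With the UAB peptide, where CD44 fell, CEMIP2 rose and the other 16 did not pass. In SKOV3 10 rose and 4 fell with RSF1, and 7 rose and 6 fell with RSF1delUAB, beside 67.3% and 66.6% of all genes changed. SPP1 (osteopontin, a CD44 ligand) fell from 937 ± 29.8 CPM to 314 ± 30.3 and 541 ± 9.83. HAS3, which makes hyaluronan, was at 57.2 ± 5.28 CPM with control vector and 57.4 ± 3.37 with RSF1. With RSF1delUAB it was at 11.3 ± 1.41 CPM (log2 difference 2.35 between the constructs).

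Beside FOLR1, folate carriers and one-carbon enzymes gave 3 rises and 5 falls of 15 with RSF1 and 5 rises and 9 falls with RSF1delUAB. The share called was below that of all genes with RSF1 (67.3%) and above it with RSF1delUAB (66.6%). MTHFD1 and SHMT1 rose with both, SHMT1 from 41.3 ± 2.79 CPM to 75.5 ± 2.87 and 97.9 ± 2.96, and the reduced folate carrier SLC19A1 fell with RSF1, from 48.4 ± 3.77 to 34.9 ± 2.59. In OVCAR3, where FOLR1 rose, 0 of 14 passed in edgeR, DESeq2 or limma-voom, and 1 had an unadjusted p under 0.05 in each. Genes of GPI anchor synthesis, which FOLR1, MSLN and CD24 need, gave 9 rises and 7 falls of 26 with RSF1 and 8 and 6 with RSF1delUAB. In OVCAR3 they gave 1 rise, of PIGX, and no fall. The share called in either direction was smaller than over all genes each time (67.3%, 66.6% and 10.9%). Their medians lay between -0.01 and 0.05 in these 3 comparisons.

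**Figure D5:**
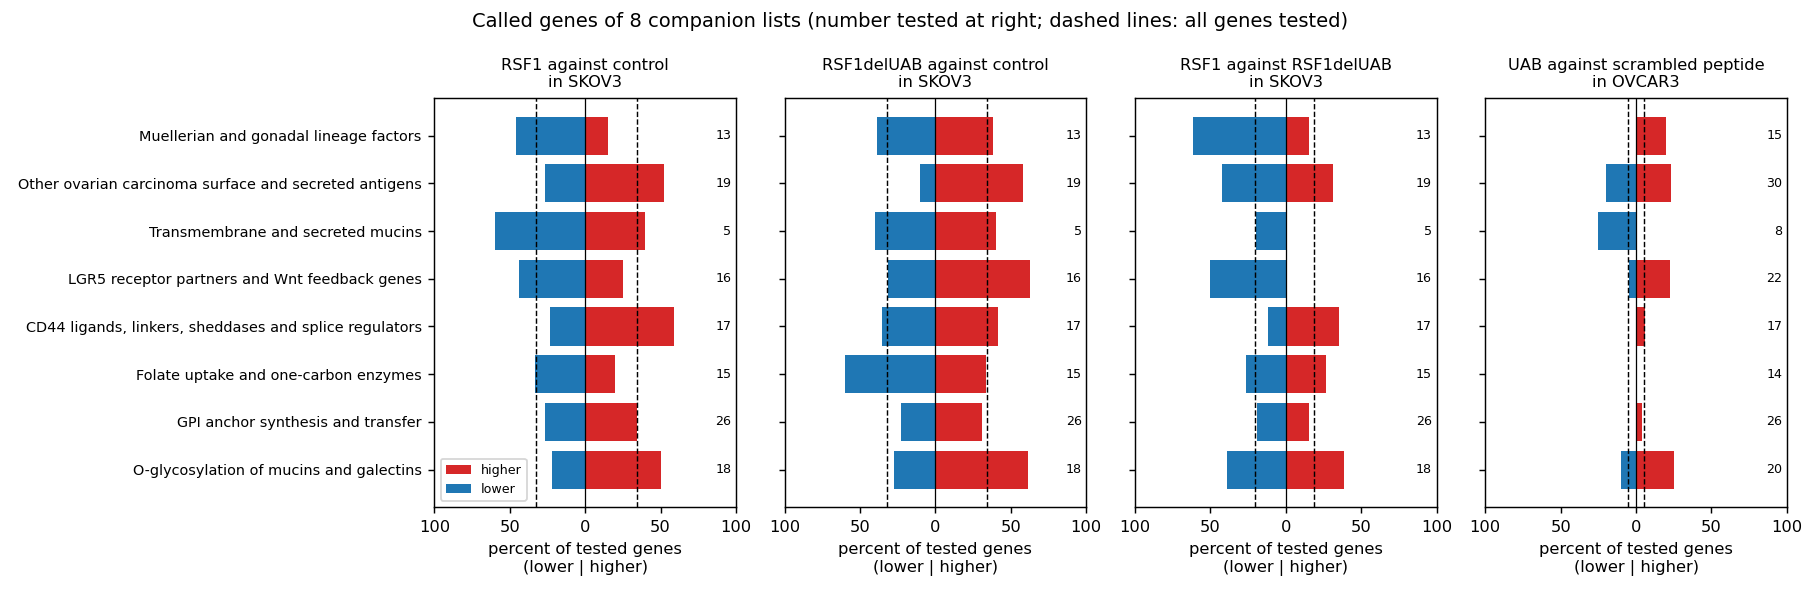
Percent of tested genes that rose (right, red) or fell (left, blue) in 8 lists and 4 comparisons, with the number tested at the right and dashed lines for all genes tested. In OVCAR3 no folate gene of 14 was called, and mucin glycosylation genes had 5 rises and 2 falls of 20.

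Markers of other cell types moved in the same libraries. Fibroblast markers summed to 11.8 to 12.7 CPM with SKOV3 control vector, 185 to 195 with RSF1 and 290 to 297 with RSF1delUAB, the order of groups in which FOLR1 and CD24 rose. All 7 tested rose with RSF1 and 6 with RSF1delUAB, led by FBLN1, from 5.10 ± 0.362 to 135 ± 5.47 and 165 ± 5.64 CPM. PDGFRB was at 0 counts in the control and RSF1delUAB libraries. Epithelial markers summed to 1392 to 1454, 1699 to 1851 and 1721 to 1813 CPM in the same 3 groups. Of 11 tested, 6 rose and 3 fell with RSF1 (34.3% and 32.9% of all genes). With RSF1delUAB 6 rose and 4 fell (34.5% and 32.1%). DSP was among the fallen, from 541 ± 10.4 CPM to 272 ± 59.7 and 286 ± 16.5. In OVCAR3 epithelial markers summed to 9101 to 9472 and 8277 to 9203 CPM, with 0 risen and 3 fallen of 14 tested (5.45% and 5.46%). In OVCAR3 fibroblast markers summed to 162 to 180.2 CPM and 136 to 154 CPM. Endothelial markers summed to 5.36 to 7.90 CPM with SKOV3 control vector, 0.739 to 1.22 CPM over both constructs, and 24.7 to 33.8 CPM in OVCAR3. The part of these markers in the FOLR1 and CD24 results was not tested.

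Genes whose log2 CPM followed a marker most closely over the 9 SKOV3 libraries share those libraries and groups, so the correlations describe the 3 groups. FOLR1 was followed by GOLM1, PMEPA1 and TXNIP (r = 0.998 for each) and ran opposite to F3 (r = -0.999). CD24 was followed by PAQR8 and MACROD2 (both 0.998) and BEAN1 (0.996), with LAMB3 opposite (-0.999, or 570.2 to 112 CPM). PAX8 was followed by XPO6 (0.998), ANPEP (0.996) and ADD1 (0.995), and ANPEP, an aminopeptidase of the cell surface, went from 313 CPM to 141 and 71.2. WT1 went with ACSS1 (0.998), CD44 with CXorf38 (0.994), MSLN with NBPF20 (0.984), MUC1 with TAS2R14 (0.944) and SOX17 with UCK1 (0.941).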

How the data were processed

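Poly-A RNA was measured, and the authors deposited raw whole-number counts for each gene, 1 table for SKOV3 and 1 for OVCAR3. Per the submitters' processing notes FastQC, STAR 2.7.9a and Subread were used, with builds GRCh38, hg38 and GRCm38 named; the strand setting is not given in the sources used here. The identifiers are of human genes: of 58279 found in GENCODE 29, 58264 lie over its positions on GRCh38. The column read as the scrambled control, replicate 2, carries an extra letter whose meaning is unknown.

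Each line was fitted alone (16735 and 18359 genes), and 13 libraries together for comparisons across lines (19946 genes), with edgeR 4.0.16 (TMM, filterByExpr minimum count 10, quasi-likelihood test, prior count 0.125, Benjamini-Hochberg at 0.05) in R 4.3.3 with limma 3.58.1. Standard errors were taken as |log2 fold change| divided by the root of F. Fits were tested on simulated counts in which few genes changed, equally up and down. Changes in as many genes as in SKOV3 were not simulated. The results were recomputed with DESeq2 1.42.0, limma-voom, other scalings and filters, a replicate block, and without each replicate.

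All 10 markers were named, the genes overlapping or neighbouring them, of each list up to 2 risen and 2 fallen genes of smallest adjusted p (mean log2 CPM not under 0), and the 3 most alike and 1 least alike genes in SKOV3. ERBB2, and list genes named in a comparison where this rule does not take them, were chosen after their values were seen. A few list genes are not reported here by name. Members and lists were chosen with earlier results of these data known.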

Additional observations from a re-analysis of the deposited data

Results flagged for a closer look

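For 6 markers the change from RSF1 to RSF1delUAB in SKOV3 and the change from scrambled to UAB peptide in OVCAR3 differed in edgeR's test of the difference between the 2 effects, over 13 libraries. As log2 differences, SKOV3 minus OVCAR3, they were 3.14 for CD44, 2.04 for CD24, 1.82 for FOLR1, 0.98 for MUC1, -0.56 for PAX8 and -2.66 for WT1. CD24 and FOLR1 had moved further in SKOV3, and CD44 and WT1 further in OVCAR3. All 6 passed the test in each of 16 alternatives tried, and the adjusted p-values stand with the results above. Line, construct and doxycycline cannot be told apart in this comparison.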

How the results depend on the processing

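No fold change of a marker that passed its test changed direction under any alternative run. The counts of genes called stayed within 1.5 times the value reported, except under a crossed pairing added after seeing the data (scrambled 1 with UAB 2, scrambled 2 with UAB 1), which called 5097 genes in OVCAR3 against 2004. It was tried because same-numbered OVCAR3 libraries deviated in opposite directions (r = -0.149). In SKOV3 deviations of same-numbered libraries correlated at -0.0417 to 0.0712, and of differently numbered ones at -0.08 to 0.0405. With 3 libraries per group this does not settle whether libraries of the same number were paired. With the replicate number as a block, 11164, 11007 and 6333 genes were called in the 3 SKOV3 comparisons (11261, 11150 and 6468 without it) and 1770 in OVCAR3, and among the markers the block ended the call of MUC1 with RSF1delUAB alone (adjusted p = 0.0524). Leaving out each replicate gave 1340 to 2239 genes in OVCAR3. The calls of MUC16 in OVCAR3 (lost without TMM scaling, adjusted p = 0.0514, and in DESeq2), MUC1 with RSF1delUAB (lost in DESeq2 at 0.0666 and without a count filter at 0.0628) and SOX17 between the constructs are the least stable. SOX17 with RSF1 passed without RSF1 replicate 1 (adjusted p = 0.00363). The difference between lines for LGR5 and MUC16 passed in some alternatives and not in others, with 0 counts in a group. Depth limits WT1, FOLR1, MUC16 and LGR5 in SKOV3 control cells, where each has at most 5 counts per library.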
